A study of Homo sapiens with 6 samples.

Results

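The genes described here are 49 genes of the lysosome, the acidic compartment in which cells break down proteins, lipids and sugar chains. They were chosen by symbol from the authors' gene table, restricted to reference chromosomes, and matched to the read counts by Ensembl identifier. All 49 were found among the 63152 genes counted, 48 under the listed symbol and CTSL1 under its current symbol CTSL (ENSG00000135047). They comprise 20 hydrolases, 8 cathepsins, 4 activators and sterol carriers, 4 membrane proteins, 2 transcription factors and 11 genes of the vacuolar proton pump (V-ATPase). The samples were A549 cells, an established line from a human lung adenocarcinoma, harvested 72 hours after transfection with siRNA at 10 nM. One group of 3 libraries received a siGENOME pool against RPS19 (siRPS19), a gene for a small-subunit ribosomal protein, and the other group of 3 received the ON-TARGETplus non-targeting control (siOTP). The labels call the 3 of each group biological replicates. The reagents differ in product line as well as in target, and these cannot be told apart here. The comparison asks how mRNA levels differ after siRNA against a ribosomal protein gene, and no protein or enzyme activity was measured.

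Most soluble lysosomal enzymes are made in the endoplasmic reticulum, tagged with mannose 6-phosphate in the Golgi and carried to the lysosome, where the V-ATPase pumps protons to make the lumen acidic. Hydrolases remove sugars, sulfate or lipid groups one step at a time, cathepsins are mainly proteases, and small activator proteins present lipids to the enzymes. Inherited loss of single members causes lysosomal storage diseases such as Pompe disease (GAA) and Fabry disease (GLA). The basic helix-loop-helix factors TFEB and TFE3 bind CACGTG-type sites, among them the CLEAR element found near many lysosomal genes, and are held in the cytoplasm when the nutrient-sensing kinase complex mTORC1 is active.

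Promoter sequences show which members carry such letters close to the start of transcription. The RefSeq promoter table (GRCh38.p14) held 34 of the 49 members, each as 250 bases before to 50 bases after the start. The motifs searched were CACGTG, the E-box, and TCACGTGA, the core of the CLEAR element, which contains CACGTG. Each is its own reverse complement, so 1 search covers both strands. CACGTG occurred in 9 of the 34 member promoters (26.5%), against 12.3% of the 10516 tested genes with a promoter and 8.77% of all 27305 promoters in the table. TCACGTGA occurred in 6 (17.6%), against 2.11% and 1.18%. As the CLEAR element is known from many lysosomal genes, a higher share in a list of such genes is not a result of this experiment. The 6 were GAA, GALNS, CTSA, LAMP1, MCOLN1 and ATP6V0D1, and NEU1, ARSB and CTSD had CACGTG without the longer core. Of the 5 stretches shown, each the 200 bases before the start read 5′ to 3′, the first 4 hold the core and belong to genes with different responses to the siRNA. GAA (alpha-glucosidase; chr17:80101381-80101580, plus strand) rose 4.01-fold, ATP6V0D1 (a V-ATPase subunit; chr16:67481158-67481357, minus strand) and LAMP1 (a membrane glycoprotein; chr13:113297039-113297238, plus strand) rose less, and MCOLN1 (a calcium channel; chr19:7522424-7522623, plus strand) was not called. GLA (alpha-galactosidase A, chrX:101407926-101408125, minus strand), which fell, is shown as an example with neither motif in its window. Both motifs are also absent from the windows of IDUA, SMPD1 and CTSH. These rose most of the 49 members, at log2 fold changes of 3.18, 2.46 and 2.32. Capitals mark CACGTG or, where present, the whole TCACGTGA.
GAA: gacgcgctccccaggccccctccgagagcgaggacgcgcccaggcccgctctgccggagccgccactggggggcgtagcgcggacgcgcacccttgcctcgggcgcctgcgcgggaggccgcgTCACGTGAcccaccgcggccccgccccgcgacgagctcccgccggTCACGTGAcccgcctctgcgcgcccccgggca
ATP6V0D1: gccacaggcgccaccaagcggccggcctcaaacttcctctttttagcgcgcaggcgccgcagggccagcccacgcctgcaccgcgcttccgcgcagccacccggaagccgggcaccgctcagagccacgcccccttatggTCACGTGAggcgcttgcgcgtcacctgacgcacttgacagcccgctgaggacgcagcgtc
LAMP1: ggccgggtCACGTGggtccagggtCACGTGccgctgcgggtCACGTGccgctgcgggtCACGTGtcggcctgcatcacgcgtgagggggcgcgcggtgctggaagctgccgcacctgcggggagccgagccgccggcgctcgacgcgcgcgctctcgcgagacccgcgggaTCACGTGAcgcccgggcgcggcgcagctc
MCOLN1: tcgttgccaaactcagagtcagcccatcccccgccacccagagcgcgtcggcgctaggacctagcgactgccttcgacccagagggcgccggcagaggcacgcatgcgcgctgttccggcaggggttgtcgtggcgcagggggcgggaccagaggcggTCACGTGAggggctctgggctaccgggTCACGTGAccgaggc
GLA: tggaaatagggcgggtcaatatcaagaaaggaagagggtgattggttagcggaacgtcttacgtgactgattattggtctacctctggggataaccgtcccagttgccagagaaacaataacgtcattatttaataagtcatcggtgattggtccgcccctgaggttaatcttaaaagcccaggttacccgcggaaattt

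In GAA the CACGTG of the 2 cores begins 76 and 31 bases before the start, and in MCOLN1 it begins 41 and 14 bases before it. In ATP6V0D1 the single core's CACGTG begins 59 bases before the start. LAMP1 had 6 matches to CACGTG, 5 of them in the stretch shown and the last spanning the start. Among members with a promoter in the table, the core was in 4 of 21 that were called higher in siRPS19, 0 of 7 called lower and 2 of 6 not called. Over all 49 members 35 were called higher, 8 lower and 6 not called. The members that could not be searched were thus nearly all called higher, and the split by call leaves them out. A match describes letters only, and binding was not measured.

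The libraries held 20814110 to 23889372 counts on genes. Reads outside genes made up 3.39% to 3.85% of entries in siOTP and 5.13% to 6.36% in siRPS19. Levels are given as CPM, the counts of a gene per 1e+06 TMM-scaled counts of its library, as mean ± SD over the 3 libraries of a group. The targeted gene, RPS19, averaged 1472 ± 96.6 CPM with the control siRNA and 35.3-fold less, 41.7 ± 4.91 CPM, with the RPS19 pool. The epithelial keratins KRT8 and KRT18 were at means of 1459 and 431.9 CPM in siOTP and were called lower in siRPS19, at 751.6 and 164.1 CPM, while KRT19 and CDH1 were called higher (log2 fold changes 2.78 and 0.71). The 8 epithelial markers summed to 1760 to 2233 CPM in siOTP and 1125 to 1267 CPM in siRPS19, and NKX2-1, a lung lineage factor, had no count in any library. Lysosomal genes are abundant in macrophages, and the summed level of 7 leukocyte markers was 3.66 to 4.91 CPM in siOTP and 10.9 to 13 CPM in siRPS19. Within that list AIF1 and CD3E had no count in any library and PTPRC, which defines leukocytes, averaged 0.0169 and 0.0532 CPM. The sum followed ITGAM, at 2.43 and 9.3 CPM. The 4 fibroblast markers summed to 32.3 to 40 and 14.6 to 20.4 CPM, and this sum followed COL1A1, at 35.7 and 16 CPM. PDGFRB was called higher, at 0.181 and 0.713 CPM, and COL1A2 and DCN were below the filter on low counts. The part of these markers' sources in the members' changes was not tested. In bulk libraries a smaller share of cells of one kind and less RNA per cell cannot be told apart.

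After RPS19 siRNA most of these lysosomal mRNAs were higher, among them 15 of 20 hydrolases and 7 of 11 V-ATPase genes, while the cathepsins split into 5 higher and 3 lower. Of the 49 members, all of which passed the filter on low counts, 35 were called higher in siRPS19 and 8 lower by edgeR's quasi-likelihood test at an adjusted p of 0.05. Across all 17171 tested genes the share called was 78.3%, with 39.5% called higher and 38.9% called lower. The 43 members called in either direction thus stand beside a high background, and the split by direction was 35 to 8 where that of all genes was 6778 to 6673. The median log2 fold change of the members was 0.73, against 0.02 over all tested genes. A rise of at least 2-fold was called for 19 members, where the background was 18.5%, and a fall of at least 2-fold for 1, GLA, where it was 12.4%. The siOTP and siRPS19 libraries did not overlap for 43 members, against 79.7% of all tested genes.

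**Figure D1:**
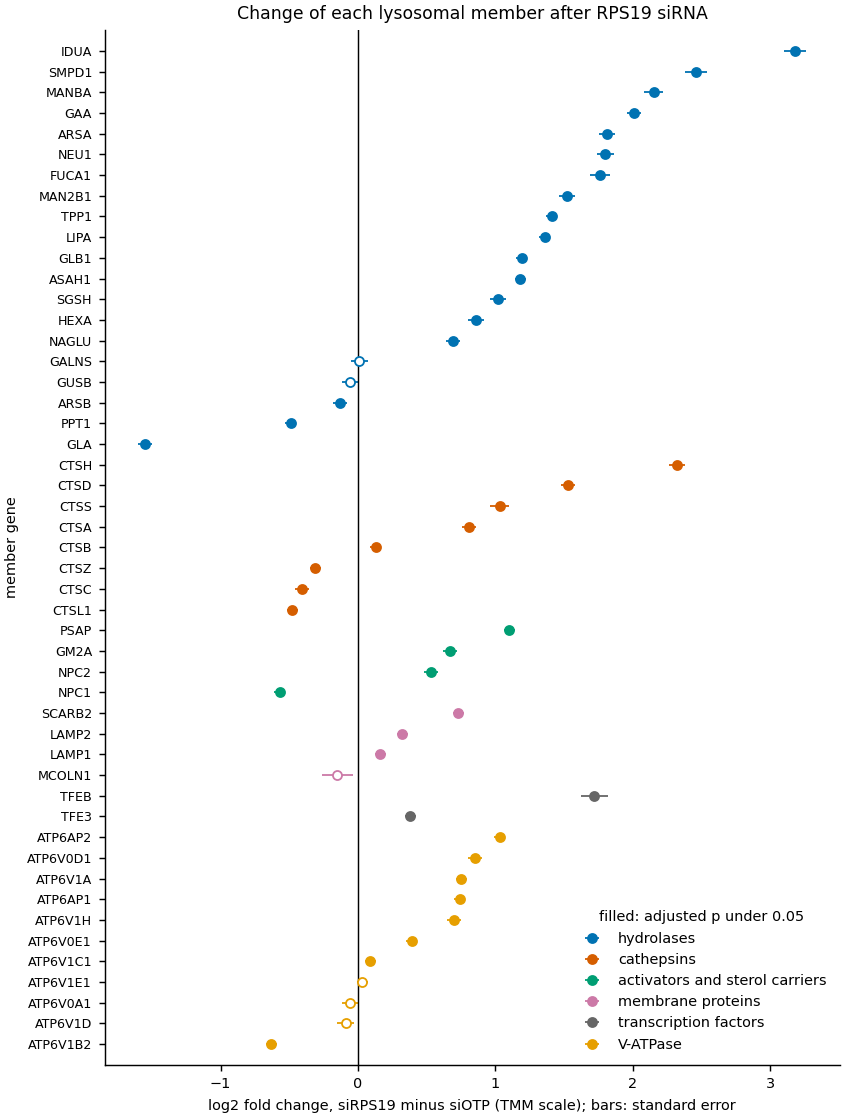
Fitted log2 fold change of each of the 49 members, siRPS19 minus siOTP on the TMM scale, by class, with bars of 1 standard error; filled points passed an adjusted p of 0.05 in edgeR's quasi-likelihood test. Hydrolases run from 3.18 for IDUA to -1.55 for GLA, whereas no V-ATPase gene lies beyond 1.03.

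The scale matters for the smaller changes. When libraries were scaled by their totals instead of TMM factors, the median over all tested genes moved from 0.02 to 0.31, and 65.8% of called genes were higher rather than 50.4%. On that scale 41 members were called higher and 6 lower, with a median of 1.01. Of all 17171 tested genes 9114 were called higher and 4734 lower on it. Library totals move log2 fold changes up by nearly the same amount in all genes, by a median of 0.29. The distance of the members' median from that of all tested genes was therefore bound to stay about the same. The changes below are on the TMM scale unless stated.

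Hydrolases, cathepsins and V-ATPase genes are set side by side next. Among the 20 hydrolases, 15 were called higher and 3 lower, with a median log2 fold change of 1.28, and 13 rose at least 2-fold. The 8 cathepsins were called higher in 5 cases and lower in 3, with a median of 0.47. Of the 11 V-ATPase genes 7 were called higher and 1 lower, with a median of 0.39, and only ATP6AP2 reached 2-fold. With library totals the medians were 1.56, 0.75 and 0.67, an order that a shift common to all genes leaves unchanged. Of all tested genes 39.5% were called higher, 38.9% lower and 18.5% higher by at least 2-fold. The 3 of 8 cathepsins called lower are near the second share, and 1 of 11 V-ATPase genes at 2-fold is below the last. These shares also stand beside the counts of smaller groups of members below. The class values are descriptions of counts and medians, and no test compared the classes.

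**Figure D2:**
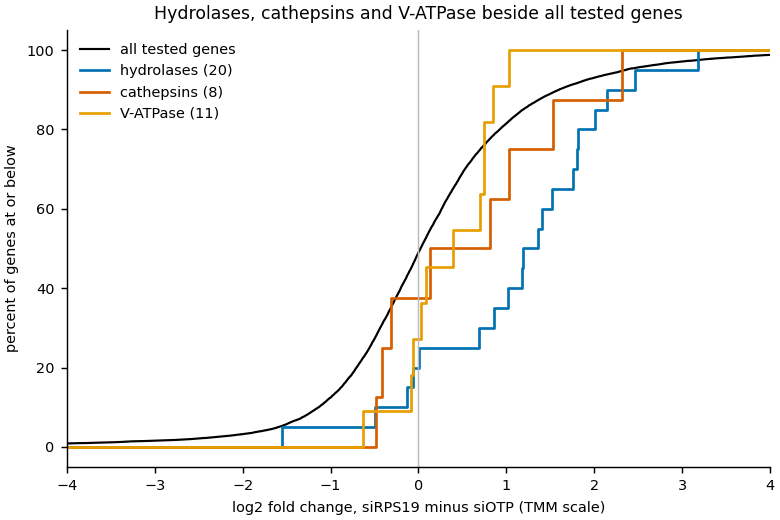
Percent of genes at or below each log2 fold change (siRPS19 minus siOTP, TMM scale) for the 20 hydrolases, 8 cathepsins, 11 V-ATPase genes and all tested genes. The hydrolase curve lies to the right of the curve for all genes over most of its length, and the V-ATPase curve is steep between -0.63 and 1.03.

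Levels per transcript length show how these changes added up. Counts per kilobase of the authors' transcript length per 1e+06 TMM-scaled counts, called level per length below, summed over the 20 hydrolases to 234.2 ± 2.88 (SD, n = 3) in siOTP and 430.6 ± 4.99 in siRPS19, a ratio of 1.84. The sum over the 8 cathepsins was 331.8 ± 7.53 and 346.1 ± 9.35, a ratio of 1.04. For the V-ATPase genes it was 267 ± 6.62 and 383.1 ± 13.6, a ratio of 1.44. The 4 activators and sterol carriers, mostly PSAP, had the highest ratio of these classes, 2.05, from 379.1 ± 11.5 to 775.7 ± 22. On the TMM scale the cathepsin total in level per length thus differed little between the groups although every cathepsin was called. CTSL1 and CTSZ, the highest of the 8 in siOTP, fell and CTSD and CTSH rose. Library totals move log2 fold changes up by a median of 0.29, so the near-equal total does not hold with them. Sums with other scalings were not computed. The total also depends on the division by length, which gives long transcripts less weight than their counts would. All 49 members together summed to 1323 ± 26.2 and 2084 ± 47.8. The lengths were used as given and were not checked against the transcripts that these cells express. Sums, shares, ranks and ratios between genes by level per length therefore depend on them, here and below. The fold change of a single gene does not.

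**Figure D3:**
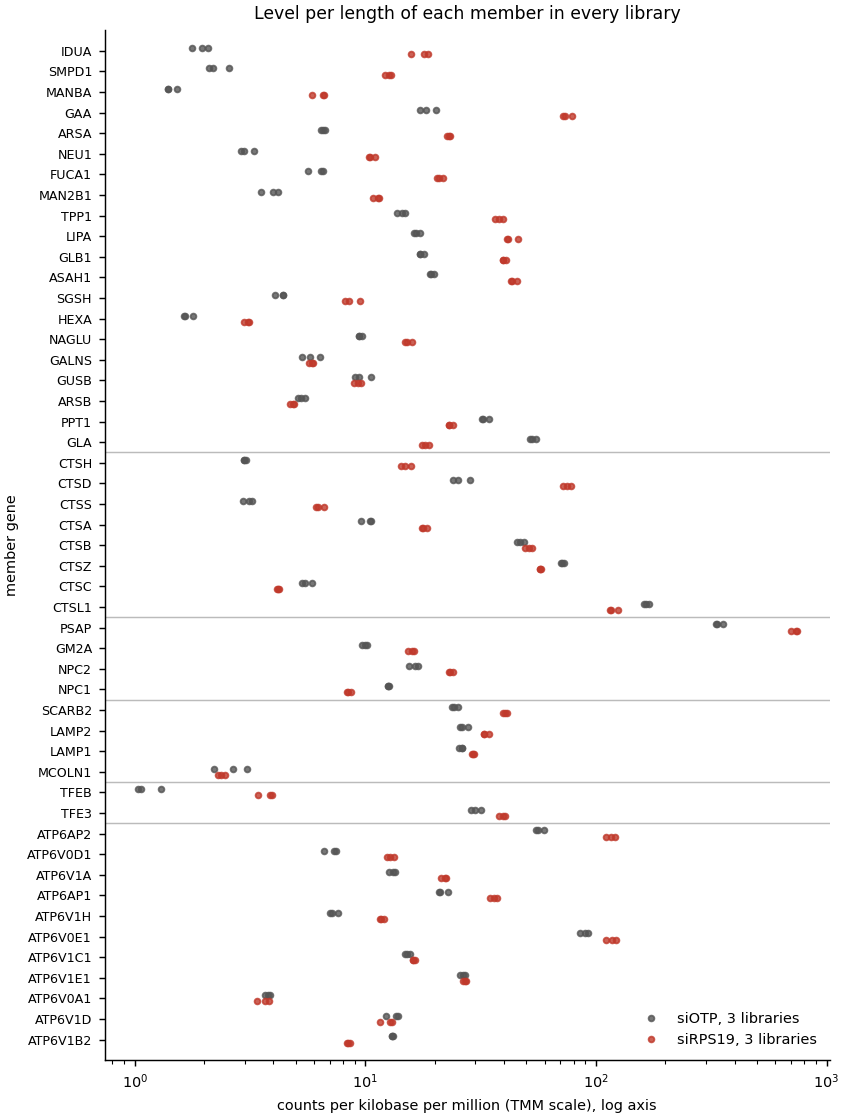
Level per length of every member (scaled counts per kilobase of transcript, log axis) in each of the 3 siOTP and 3 siRPS19 libraries, with 1 point per library and lines between classes. Members span PSAP, at a mean of 340.3 in siOTP, to TFEB at 1.13, and for 43 of the 49 the groups do not overlap.

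Of the 11 glycosidases, which cut sugars from glycogen, glycolipids and glycoproteins, 9 were called higher and 1 lower, with a median log2 fold change of 1.52. IDUA, which removes iduronic acid from dermatan and heparan sulfate, was at 7.15, 8.31 and 7.89 CPM in the siOTP libraries and 75.6, 63.7 and 72.1 CPM in the siRPS19 libraries. All siRPS19 libraries lay far above all siOTP libraries, a 9.07-fold difference with a log2 fold change of 3.18 ± 0.08 (SE) and adjusted p = 3.93e-18. The siOTP values rest on 149, 164 and 153 counts. IDUA overlaps SLC26A1 on the opposite strand, which went from 2.49 to 12.2 CPM, and the sources do not say that strand was used in counting.

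GAA, which degrades glycogen, was measured at 95, 89.2 and 103.9 CPM in siOTP and 372.2, 404 and 380.3 CPM in siRPS19. The groups were well separated, and GAA rose 4.01-fold (log2 fold change 2.01 ± 0.05, adjusted p = 5.04e-17). In level per length it was the highest hydrolase over all libraries, at 18.6 ± 1.44 in siOTP and 74.8 ± 3.21 in siRPS19, and its share of the hydrolase total went from 7.95% to 17.4%. MANBA, beta-mannosidase, gave 11.7, 12.8 and 11.7 CPM in siOTP and 49.3, 55.6 and 55.3 CPM in siRPS19. It rose 4.42-fold, with no overlap between the groups (log2 fold change 2.15 ± 0.07, adjusted p = 7.89e-17).

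NEU1, the lysosomal sialidase, was at 14, 14.4 and 15.8 CPM in siOTP and at 50, 50.9 and 53.3 CPM in siRPS19. FUCA1, which removes fucose, was at 11.6, 13.4 and 13.2 CPM against 41.7, 42.8 and 44.6 CPM. MAN2B1, lysosomal alpha-mannosidase, was at 21.4, 18.9 and 22.4 CPM against 61.8, 58.1 and 60.7 CPM. In all 3 genes the lowest siRPS19 library was above the highest siOTP library, and the rises were 3.49-fold, 3.38-fold and 2.88-fold. GLB1, beta-galactosidase, gave 77.9, 75.5 and 75.5 CPM in siOTP and 173, 178 and 171.9 CPM in siRPS19. The replicates were tight and GLB1 rose 2.28-fold (log2 fold change 1.19 ± 0.04, adjusted p = 1.50e-16). HEXA, a subunit of beta-hexosaminidase, and NAGLU, which acts on heparan sulfate, rose by less than 2-fold, at log2 fold changes of 0.86 ± 0.06 and 0.69 ± 0.05.

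GLA went the other way. This enzyme removes terminal alpha-galactose from glycolipids, and its mRNA was at 106.6, 109.1 and 114 CPM in siOTP and 36.4, 37.3 and 39 CPM in siRPS19. Every siRPS19 library was below every siOTP library, a 2.92-fold fall (log2 fold change -1.55 ± 0.05, adjusted p = 3.24e-17). In siOTP GLA had the highest level per length of the 20 hydrolases, 53.2 ± 1.82, and in siRPS19 it was at 18.2 ± 0.637, so that its share of the hydrolase total went from 22.7% to 4.23%. The ratio of GLB1 to GLA in level per length was 0.346, 0.327 and 0.313 in the siOTP libraries and 2.25, 2.26 and 2.08 in the siRPS19 libraries. The remaining glycosidase, GUSB (beta-glucuronidase), was not called, at 38.7 ± 3.35 and 37.1 ± 1.32 CPM with an adjusted p of 0.39. GUSB has pseudogene copies that could take or add reads, and with library totals it was called higher, at 0.23.

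Sulfatases remove sulfate groups from glycosaminoglycans and sulfolipids, and of the 4 members 2 rose. ARSA, arylsulfatase A, was at 15, 14.4 and 14.6 CPM in siOTP and 52.5, 51.5 and 50.7 CPM in siRPS19. The siRPS19 libraries were all higher, by 3.51-fold (log2 fold change 1.81 ± 0.06, adjusted p = 7.98e-17). SGSH, heparan N-sulfatase, gave 29.5, 29.6 and 27.2 CPM and 63.5, 54.7 and 57.3 CPM, 2.03-fold higher with no overlap. SGSH lies opposite SLC26A11, which went from 17.4 to 62.3 CPM, so the part of that gene's reads in the SGSH value was not tested. GALNS, which acts on keratan sulfate, was not called (48.8 ± 4.48 and 49 ± 1.16 CPM, adjusted p = 0.91), and with library totals it was called higher, at 0.29. GALNS overlaps TRAPPC2L on the opposite strand, at 31.9 and 36.3 CPM, and the part of those reads in the GALNS value was not tested.

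ARSB, arylsulfatase B, was called lower by a small amount, at a log2 fold change of -0.13 ± 0.05 (adjusted p = 0.028), and this call was not stable. With library totals it was called higher (0.15), and the ratio of the authors' group RPKM values was also 0.15. Leaving out siOTP replicate 1, siRPS19 replicate 1 or siRPS19 replicate 3 gave -0.12, -0.13 and -0.10, none past the threshold. Its adjusted p over all alternatives ran from 0.0047 to 0.51.

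Of the 4 hydrolases of lipids and fatty acyl bonds, apart from those that cut sugars or sulfate from lipids, 3 were called higher and 1 lower. SMPD1, acid sphingomyelinase, was at 5.8, 6.03 and 7.06 CPM in siOTP and 35.5, 33.6 and 35.1 CPM in siRPS19. The groups were far apart, with a 5.52-fold rise that was second only to IDUA among the 49 members (log2 fold change 2.46 ± 0.08, adjusted p = 1.15e-16). LIPA, which splits cholesteryl esters and triglycerides, was at 81.8, 80.3 and 84.9 CPM and then 206.2, 226 and 204 CPM, 2.58-fold higher. ASAH1, acid ceramidase, was at 96.1, 100.6 and 96.9 CPM and then 216.7, 230.5 and 217.9 CPM, 2.26-fold higher. For both, the siRPS19 libraries all exceeded the siOTP libraries. PPT1, which removes fatty acids bound to cysteine, fell instead, from 108.6 ± 4.33 to 77.4 ± 1.95 CPM (log2 fold change -0.49 ± 0.04, adjusted p = 1.74e-09). TPP1, a peptidase that trims tripeptides from protein ends, was at 73, 70.4 and 67.2 CPM in siOTP and 186.6, 177.9 and 193.5 CPM in siRPS19. It rose 2.65-fold without overlap between the groups.

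The 8 cathepsins included both rises and falls. CTSL1, cathepsin L, a cysteine protease, had the highest level per length of the 8 in both groups, and was at 389.8, 384.2 and 401.9 CPM in siOTP and 272.5, 276 and 296.5 CPM in siRPS19. Its siRPS19 libraries were all lower, by 1.39-fold (log2 fold change -0.48 ± 0.04, adjusted p = 1.18e-09). CTSZ, a carboxypeptidase and second in siOTP by level per length, fell from 145.3 ± 2.27 to 116.8 ± 0.616 CPM (log2 fold change -0.31 ± 0.04, adjusted p = 1.70e-07), although with library totals its value was -0.03 and not called. CTSC, which activates serine proteases of immune cells, fell from 63.4 ± 3.12 to 47.8 ± 0.49 CPM (log2 fold change -0.41 ± 0.05).

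CTSD, the aspartic protease cathepsin D, rose. It was at 75.6, 72.4 and 85.3 CPM in siOTP and 216.8, 224.7 and 232.9 CPM in siRPS19, with the groups well apart. The difference was 2.89-fold (log2 fold change 1.53 ± 0.05, adjusted p = 9.53e-15). CTSH, an aminopeptidase known from lung surfactant processing, gave 17.9, 17.6 and 17.6 CPM and then 87.3, 93.3 and 84.1 CPM. No siRPS19 library came near the siOTP values, and the 4.98-fold rise was the largest of the 8 cathepsins (log2 fold change 2.32 ± 0.06, adjusted p = 7.29e-19). CTSS, a cysteine protease of antigen presentation, was at 13.6, 12.4 and 13.2 CPM and then 26.4, 25.8 and 28.1 CPM, 2.04-fold higher with no overlap.

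CTSA, a carboxypeptidase that also protects NEU1 and GLB1 in a complex, rose 1.75-fold from 59.9 ± 3.34 to 105.1 ± 2.83 CPM. CTSB, cathepsin B, changed least, from 349.6 ± 12.1 to 381.6 ± 12.9 CPM (log2 fold change 0.13 ± 0.04, adjusted p = 0.0079). That call was lost without siOTP replicate 1 (0.09) and without siOTP replicate 2 (0.10), and with no filter on low counts (0.08), where the adjusted p reached 0.17; the range over its alternatives was 1.88e-08 to 0.17.

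The make-up of the cathepsin mRNA pool therefore shifted, while its summed level per length stayed close with TMM scaling but not with library totals. CTSL1 was 49.9% ± 0.0344 (SD, n = 3) of the summed level per length in siOTP and 34.4% ± 0.678 in siRPS19. CTSD went from 7.81% ± 0.498 to 21.7% ± 0.232 and CTSH from 0.907% ± 0.0228 to 4.33% ± 0.304. CTSZ went from 21.5% to 16.6%, and CTSB was at 14.2% and 14.8%. The ratio of CTSD to CTSL1 was 0.153, 0.149 and 0.168 in the siOTP libraries and 0.628, 0.642 and 0.62 in the siRPS19 libraries. Such ratios are taken within a library and do not depend on its scaling, although their size depends on the transcript lengths.

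**Figure D4:**
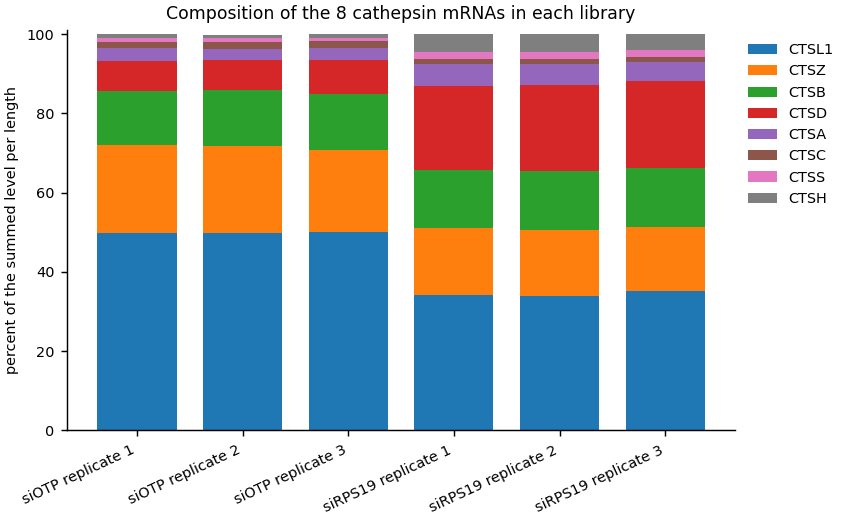
Percent of the summed level per length of the 8 cathepsins taken by each gene, with 1 bar per library. CTSL1 shrinks from a mean of 49.9% in siOTP to 34.4% in siRPS19 and CTSD grows from 7.81% to 21.7%, alike in the 3 libraries of each group.

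Activator proteins rose and the pair of cholesterol carriers parted. PSAP, whose product is cut into 4 saposins that present sphingolipids to hydrolases, was at 1074, 1076 and 1142 CPM in siOTP and 2269, 2396 and 2375 CPM in siRPS19. The siRPS19 libraries were all higher, by 2.14-fold (log2 fold change 1.10 ± 0.04, adjusted p = 2.62e-15). With a level per length of 340.3 ± 12 and 727.9 ± 21.1, PSAP was the most abundant of the 49 members in both groups. GM2A, the activator that serves beta-hexosaminidase, rose from 44.6 ± 1.29 to 71 ± 2.17 CPM (log2 fold change 0.67 ± 0.05). NPC2, the soluble carrier that takes up cholesterol in the lumen, rose from 44.8 ± 2.03 to 64.6 ± 1.27 CPM (0.53 ± 0.05), while NPC1, the membrane protein that receives it, fell from 122.8 ± 0.655 to 82.8 ± 1.89 CPM (-0.57 ± 0.04, adjusted p = 3.85e-11). The NPC2 to NPC1 ratio in level per length was 1.34, 1.31 and 1.24 in siOTP and 2.73, 2.75 and 2.81 in siRPS19. GM2A overlaps CCDC69 on the opposite strand, which went from 4.8 to 17.5 CPM, and the part of that gene's reads in the GM2A value was not tested. NPC2 overlaps ISCA2 and NPC1 overlaps C18orf8, also on the opposite strand, at 23.6 and 17.3 CPM and at 16.7 and 16 CPM.

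Of the 4 membrane proteins 3 were called higher, with a median log2 fold change of 0.24. SCARB2, the receptor that carries glucocerebrosidase to the lysosome, had the highest level per length of the 4 over all libraries, with 138.4, 143.5 and 134.5 CPM in siOTP and 225.5, 233 and 230.2 CPM in siRPS19. Its siRPS19 libraries were all higher, by 1.65-fold (log2 fold change 0.73 ± 0.04, adjusted p = 4.70e-13). LAMP2 and LAMP1, the abundant glycoproteins that line the membrane, rose by log2 fold changes of 0.32 ± 0.04 and 0.16 ± 0.04. For LAMP1 the means were 149.6 ± 2.33 and 167.7 ± 1.7 CPM (adjusted p = 4.14e-04). MCOLN1, the calcium channel that releases calcium from lysosomes, was not called (10.5 ± 1.7 and 9.39 ± 0.331 CPM, adjusted p = 0.2). Without siOTP replicate 2 it was called lower, at -0.29, and its adjusted p over the alternatives ran from 0.021 to 0.88. MCOLN1 overlaps PNPLA6 on the same strand, which was at 64.7 CPM in siOTP and 81.4 CPM in siRPS19, well above MCOLN1. Reads lost to or gained from that gene in the MCOLN1 value were not tested.

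The V-ATPase has a membrane part, V0, that carries protons, and a cytosolic part, V1, that splits ATP. In V0, ATP6V0E1, a small subunit with the highest level per length of the 11 genes, was at 138.2, 146.1 and 150.4 CPM in siOTP and 179.7, 197.6 and 190.9 CPM in siRPS19. The siRPS19 libraries were all higher, by 1.31-fold (log2 fold change 0.39 ± 0.04, adjusted p = 7.99e-08). ATP6V0D1, which couples the central stalk to the membrane ring, rose from 58.6 ± 3.47 to 105.3 ± 3.74 CPM (0.85 ± 0.05). ATP6V0A1, an isoform of the large subunit a, was not called at 41.3 ± 1.04 and 39.7 ± 2.43 CPM (adjusted p = 0.36), but was called higher, at 0.23, with library totals.

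In V1 the subunits that form the ATP-splitting head moved in opposite directions. ATP6V1A, the catalytic A subunit, rose from 67.2 ± 2.1 to 112.8 ± 2.9 CPM (0.75 ± 0.04, adjusted p = 1.53e-12), whereas ATP6V1B2, the B subunit that alternates with it in the head, fell from 102.1 ± 0.772 to 66.1 ± 0.766 CPM (-0.63 ± 0.04, adjusted p = 1.11e-11). Their ratio in level per length was 1.02, 1.03 and 0.963 in the siOTP libraries and 2.62, 2.69 and 2.5 in the siRPS19 libraries. The size of this ratio rests on both transcript lengths, while its fold change between the groups does not. ATP6V1H, a regulatory subunit, rose from 37 ± 1.42 to 60 ± 1.22 CPM (0.70 ± 0.05). The stalk subunits ATP6V1E1 and ATP6V1D were not called, at log2 fold changes of 0.03 ± 0.04 and -0.09 ± 0.06, and ATP6V1E1 was called higher with library totals (0.31). ATP6V1D was called lower without siOTP replicate 1 (-0.16) and higher with library totals (0.20). It lies opposite EIF2S1, which went from 200.8 to 82.9 CPM, and MPP5, at 92.6 and 84.5 CPM. ATP6V1C1, another stalk subunit, was called higher at 0.09 ± 0.04 with an adjusted p of 0.049. Leaving out any 1 library other than siRPS19 replicate 1 ended that call, with values of 0.06 to 0.11 and adjusted p-values of 0.056 to 0.31, in a range of 3.89e-08 to 0.51 over all alternatives.

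Both accessory proteins of the pump rose. ATP6AP2, also known as the prorenin receptor, was at 142.6, 153.7 and 145.2 CPM in siOTP and 285.6, 313.6 and 301.8 CPM in siRPS19. The groups did not overlap, and the rise was 2.04-fold (log2 fold change 1.03 ± 0.04, adjusted p = 8.57e-15). ATP6AP1 rose from 105.2 ± 5.33 to 176 ± 6.5 CPM (0.74 ± 0.04). By level per length ATP6AP2 was 21.3% ± 0.674 of the 11 genes' total in siOTP and 30.3% ± 0.366 in siRPS19, ATP6V0E1 was 33.4% and 30.4%, and ATP6V1B2 was 4.9% and 2.21%. As median log2 fold changes, the 3 V0 members were at 0.39, the 6 V1 members at 0.06 and the 2 accessory members at 0.89.

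Both transcription factors were higher. TFEB was at 7.34, 5.82 and 6.03 CPM in siOTP and 19.3, 21.7 and 22.3 CPM in siRPS19, from 115 to 153 counts and 501 to 540 counts per library. The siRPS19 libraries were all above the siOTP libraries, a 3.29-fold rise (log2 fold change 1.72 ± 0.10, adjusted p = 1.35e-12). TFE3 was at 123, 127.7 and 135.4 CPM and then 162.3, 168.4 and 173.2 CPM. It rose 1.31-fold without overlap (0.38 ± 0.04, adjusted p = 5.80e-08). By level per length TFE3 remained the more abundant of the pair, with a TFE3 to TFEB ratio of 22.1, 29 and 29.6 in siOTP and 11.1, 10.2 and 10.2 in siRPS19. The activity of both proteins depends on where they are in the cell, which these libraries do not measure.

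To place the members among other lysosomal genes, 136 further genes in 7 lists by known role were counted in the same fit. Of the 125 tested, 81 were called higher and 26 lower, with a median log2 fold change of 0.48, where 39.5% of all tested genes were called higher and 38.9% lower. The 28 tested genes listed as soluble hydrolases outside the members were called higher in 20 cases and lower in 7, with a median of 0.73. Named from them by size of change are SIAE, which removes acetyl groups from sialic acid (2.67 ± 0.07), HGSNAT (1.21 ± 0.04), and GGH, which trims folate polyglutamates (-2.09 ± 0.06). HGSNAT is a membrane enzyme that acetylates heparan sulfate and so is neither soluble nor a hydrolase, although it was counted in this list. Among 7 further cathepsins and cathepsin inhibitors 4 rose and 2 fell. CTSV, a close relative of CTSL1, fell from 17.2 ± 1.58 to 1.31 ± 0.0388 CPM (-3.71 ± 0.13), CTSO rose from 0.72 ± 0.258 to 7.4 ± 0.464 CPM (3.36 ± 0.19) and CTSF rose by 1.28 ± 0.05. Without replicate 1 of both groups the number that fell was 1.

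The 27 further membrane proteins were called higher in 21 cases and lower in 1, with a median of 0.64, and the 1 lower call was lost without siRPS19 replicate 1. LAMP3, a relative of LAMP1 and LAMP2, rose from 0.417 ± 0.0563 to 5.49 ± 0.338 CPM (3.70 ± 0.21). MCOLN3, a relative of MCOLN1, rose by 2.37 ± 0.12 and SIDT2, a putative RNA transporter, by 1.25 ± 0.06. Of the 14 further genes of the V-ATPase and its assembly 7 were called higher and 6 lower, with a median of 0.27, shares not far from the 39.5% and 38.9% of all tested genes. The list held 17 genes before the filter on low counts, which ATP6V0C, a V0 subunit, did not pass (0.267 and 0.341 CPM). Whether its low counts come from the counting was not tested. ATP6V1E2, the alternative to ATP6V1E1, fell from 27.8 ± 2.94 to 8.84 ± 0.263 CPM (-1.65 ± 0.08), while ATP6AP1L rose (1.53 ± 0.25) and TCIRG1, another isoform of subunit a, rose from 113.4 ± 4.34 to 172.6 ± 8.96 CPM (0.61 ± 0.04). With library totals only 1 of these 14 was called lower, on a scale where 4734 of all 17171 tested genes were.

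Genes of mannose 6-phosphate tagging and sorting had a median of 0.08, with 6 of 15 higher and 4 lower, beside 39.5% and 38.9% of all tested genes. With library totals 11 of the 15 were called higher, beside 9114 called higher and 4734 lower of all 17171 tested genes. GNPTG, a subunit of the tagging enzyme (1.40 ± 0.06), SUMF1, which activates sulfatases (0.94 ± 0.06), and SORT1, a sorting receptor (0.86 ± 0.05), rose. Regulators of TFEB and nutrient sensing were called higher in 12 of 20 cases and lower in 6, the latter 2 with library totals. The Rag GTPases RRAGB (1.71 ± 0.09), RRAGD (1.27 ± 0.15) and RRAGC (0.75 ± 0.06), which recruit mTORC1 and TFEB to the lysosome, rose, whereas the remaining Rag GTPase, RRAGA, was not called at 100.5 and 99.7 CPM (-0.01 ± 0.04), and MITF, a relative of TFEB picked out after seeing its value, fell from 55 to 35.3 CPM (log2 fold change -0.64). In the list of HOPS tethering and lysosome positioning genes 11 of 14 were called higher and 0 lower, with PLEKHM1 (1.17 ± 0.06), VPS11 (0.95 ± 0.07) and LYST (0.86 ± 0.07) changing most.

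**Figure D5:**
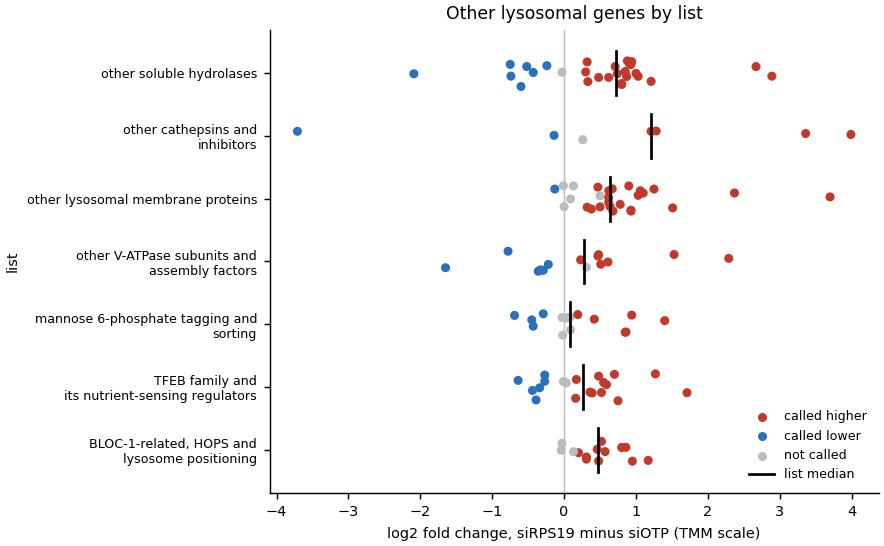
Log2 fold change (siRPS19 minus siOTP, TMM scale) of each tested gene in the 7 lists of other lysosomal genes, with 1 point per gene coloured by its call and a bar at the list median. Medians range from 0.08 for mannose 6-phosphate tagging and sorting to 1.21 for other cathepsins and inhibitors.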

How the data were processed

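RNA from 6 A549 libraries was read as pairs. The submitters' processing notes name TopHat2 (2.0.8b) with build hg19, HTSeq, and DESeq in R (3.0.2). For the annotation release, counting mode and strand setting: not given in the sources used here. Raw read counts per Ensembl gene were deposited for each library. The authors' gene table, per the file headers, holds 1 mean count and 1 RPKM per group. Tested on the table, the means are those of the whole-number library counts plus a pseudocount of 1. Such deposited means need not be whole, like expected counts, but nothing in them was estimated, and the RPKM divides them by transcript length and group total. The RPKM served 1 alternative, and 6 other columns of per-sample values were not used.

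Genes were filtered with filterByExpr (minimum count 10, minimum total 15), scaled with TMM factors and tested with edgeR 4.0.16 (quasi-likelihood test, R 4.3.3), with Benjamini-Hochberg adjustment over 17171 genes and a threshold of 0.05. Adjusted p-values are from this test, except in ranges over alternatives. Standard errors are the absolute log2 fold change divided by the square root of the F statistic of this test. Members and lists were chosen with earlier results of these data known. Values in every library are given for members changed at least 2-fold, TFEB, TFE3 and the most abundant member of each class; from each further list, up to 3 called genes with the largest change and a mean of at least 1 CPM are named. Replicates are separate samples per the labels, and the descriptions of same-numbered libraries end in the same date. Their deviations from the group means correlated at 0.055, -0.095 and 0.045 over genes. The procedure was tested on simulated data in which few genes changed, in random directions. In the real libraries 78.3% of tested genes were called, so that test does not bear on the choice of scaling. Alternatives were other scalings, filters, DESeq2 1.42.0, limma-voom (limma 3.58.1), the replicate block and leaving out libraries.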

Additional observations from a re-analysis of the deposited data

How the results depend on the processing

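Under 18 alternatives, 39 of the 49 members kept their direction and side of the threshold in every one. With library totals and upper-quartile factors the median log2 fold changes were 1.56 and 1.45 for hydrolases, 0.75 and 0.64 for cathepsins, and 0.67 and 0.56 for V-ATPase genes. With no filter on low counts they were 1.23, 0.42 and 0.33, and with a filter at a mean of 1 CPM 1.33, 0.52 and 0.43. Leaving out 1 library gave 1.24 to 1.31, 0.43 to 0.48 and 0.33 to 0.44, and leaving out a same-numbered pair 1.22 to 1.31, 0.44 to 0.49 and 0.35 to 0.41. The number of V-ATPase genes called lower was 2 with no filter and 1 to 2 when libraries were left out. Values that changed sign and were called on at least 1 of the scales were, with library totals, GUSB 0.23, ARSB 0.15, ATP6V0A1 0.23 and ATP6V1D 0.20. ARSB was also at 0.04 with upper-quartile factors and at 0.15 by the authors' RPKM. Uncalled values near 0 changed sign as well, among them MCOLN1 (0.13 with library totals), GALNS (-0.04) and ATP6V1E1 (-0.02), the last pair with no filter. These scalings move all genes up together; other causes were not tested. Among the further lists, library totals and upper-quartile factors each gave 1 cathepsin or inhibitor and 0 membrane proteins called lower and 11 mannose 6-phosphate genes called higher. Nutrient-sensing genes called lower were 2 and 3, and V-ATPase and assembly genes called lower were 1 with library totals. The membrane count was 0 with the filter at 1 CPM. When libraries were left out it was 0 to 1, and that of cathepsins and inhibitors 1 to 2. With the replicate block 35 members were called higher and 8 lower, and the block changed no member's call. Depth limits the scarcest members most: TFEB and SMPD1 rest on as few as 115 and 119 counts in a siOTP library.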
